A study of Mus musculus with 6 samples.

Results

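The MYC, MAX and MXD network comprised 10 genes of the deposited count table, taken by symbol out of 19390, namely Myc, Mycn, Max, Mxd1, Mxd3, Mxd4, Mnt, Mga, Mlx and Mlxip. All 10 had a row and all 10 had enough reads to be tested, as did 12810 genes in all. Transcripts had been sequenced from γδ T cells that were sorted by flow cytometry from spleens of 6-week-old mice. The KO label stands on 3 libraries and was taken to mean mice homozygous for a floxed Usf3 allele (Usf3 f/f) that also carried CD2-cre, a transgene driving Cre recombinase in lymphoid cells. The WT label stands on 3 libraries and was taken to mean Usf3 f/f mice without Cre, so every animal carried the floxed alleles and the comparison holds the deletion and the transgene together. The labels do not say whether each library came from a separate animal or from a pool, and the p-values below measure the spread between these libraries, which may be technical.

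Library totals lay between 34644862 and 35806402 counts. Usf3 had 68.5 ± 3.18 CPM in KO and 72.2 ± 1.81 CPM in WT (SD, n = 3 each; CPM is the read count scaled to library size), which did not pass the test (edgeR adjusted p = 0.261). No label names the floxed exons, so a whole-gene count does not check the labels. CD3 chain genes, which mark T cells, were present in every library, with Cd3e at 328 CPM in KO and 346 CPM in WT. Cd3e, Cd3d and Cd3g were lower in KO (edgeR adjusted p = 0.0364, 0.00287 and 5.91e-05), and Cd247 did not pass (adjusted p = 0.593). The constant genes of the γδ receptor chains had no row under the symbols searched, nor did Trac, Trbc1 and Trbc2 of the αβ receptor. Receptor genes were therefore not used to check the cells. The B cell list summed to 5.40 to 7.25 CPM in KO and 6.09 to 6.78 CPM in WT, the myeloid list to 10.4 to 12.9 CPM in KO and 14.2 to 16.6 CPM in WT, and the red cell and platelet list stayed under 1 CPM. Cd79b (5.24 CPM in KO and 5.65 CPM in WT) led the B cell list, and Cd68 (6.19 CPM in KO and 8.35 CPM in WT) led the myeloid list, on which Cd68 and Itgam were lower in KO. The NK list summed to 86.1 to 89.5 CPM in KO and 85.9 to 91.9 CPM in WT, mostly Klrb1c, and Ncr1 on it was lower in KO. No marker of these lists that had a row was at 0 in every library. On the αβ T cell list Cd4 was near 0, at 0.463 CPM in KO and 0.522 CPM in WT, while Cd8a was higher in KO, at 86.9 CPM against 66.0 CPM in WT, and Foxp3 lower, at 8.31 CPM against 12.3 CPM in WT.

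The network is a set of basic helix-loop-helix leucine zipper proteins that pair with one another and bind DNA at E-boxes, whose canonical form is CACGTG. MYC or MYCN with MAX activates genes of growth and biosynthesis, whereas MXD proteins, MNT and MGA compete for MAX and recruit co-repressors. MLX is the corresponding partner of MLXIP (MondoA), which responds to glucose phosphates. In T cells MYC is induced by antigen receptor signalling and is known for the metabolic changes that precede division. USF proteins, to which USF3 is related, recognise the same E-box.

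E-boxes in the members' own promoters are shown because network proteins and USF proteins share this site. RefSeq promoter windows (build GRCm38.p6), from 250 bases before to 50 bases after the annotated start, matched 9 of the 10 members, all but Myc. CACGTG, which reads the same on both strands, was present in 4 of these 9 windows and in 7.15% of all 32851 windows in the table. The looser form CANNTG, which includes CACGTG, was present in 6 of 9 member windows and in 72.3% of all windows. The table also holds genes not tested here, and among tested genes with a window the shares were 11.4% for CACGTG and 67.7% for CANNTG. Only 78.9% of tested genes had a window, so those shares do not describe the tested genes as a whole. The 4 members with CACGTG were Max, Mxd4, Mnt and Mlx, and the following 60 bases, 5′ to 3′, show each site in capitals.
Max, chr12:76962219-76962278, minus strand: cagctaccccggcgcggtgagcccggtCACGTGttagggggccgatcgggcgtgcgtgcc
Mxd4, chr5:34187897-34187956, minus strand: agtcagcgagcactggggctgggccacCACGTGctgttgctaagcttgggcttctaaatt
Mnt, chr11:74830774-74830833, plus strand: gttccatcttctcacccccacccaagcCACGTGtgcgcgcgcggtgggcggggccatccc
Mlx, chr11:101087223-101087282, plus strand: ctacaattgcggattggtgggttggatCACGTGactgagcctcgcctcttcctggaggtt

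The 250 bases before the start of Mycn and of Mxd1 are also given, as members without CACGTG in the window whose level fell in KO. Capitals mark the 1 CANNTG match upstream of Mycn. Mxd1 had no match to either form.
Mycn, chr12:12941837-12942086, minus strand: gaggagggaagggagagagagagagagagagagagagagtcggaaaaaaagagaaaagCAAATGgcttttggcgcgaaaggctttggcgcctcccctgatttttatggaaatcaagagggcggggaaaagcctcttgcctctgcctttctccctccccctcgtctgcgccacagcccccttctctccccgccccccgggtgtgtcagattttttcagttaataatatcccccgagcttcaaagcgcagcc
Mxd1, chr6:86669160-86669409, minus strand: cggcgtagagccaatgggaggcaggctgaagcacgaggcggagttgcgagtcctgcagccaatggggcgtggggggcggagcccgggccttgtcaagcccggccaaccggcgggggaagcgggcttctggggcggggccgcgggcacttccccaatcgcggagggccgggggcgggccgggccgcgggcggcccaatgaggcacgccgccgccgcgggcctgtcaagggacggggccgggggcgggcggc

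Of the 10 members, 4 fell in KO and 0 rose. Myc fell most, followed by Mycn, Mxd1 and Mlxip, while Max and its remaining partners did not pass the test. The question put to these genes was whether any part of the network differed between KO and WT cells, and a gene was called changed at an edgeR quasi-likelihood adjusted p under 0.05 over all tested genes. By that rule 10.1% of tested genes were lower, 7.23% were higher and 17.3% were called in either direction. At an unadjusted edgeR p under 0.05, 5 members were lower and 0 higher, and DESeq2 and limma-voom each called 4 lower and 0 higher. The share of all tested genes at that unadjusted cutoff was not taken, so the percentages above are no background for the 5. The median log2 fold change (KO over WT) of the members was -0.10, beside 0.0014 over all tested genes. In 5 members, the 4 called and Mxd4, the KO libraries all lay below the WT libraries, and in 32.1% of tested genes the libraries of both labels did not overlap in one direction or the other.

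**Figure D1:**
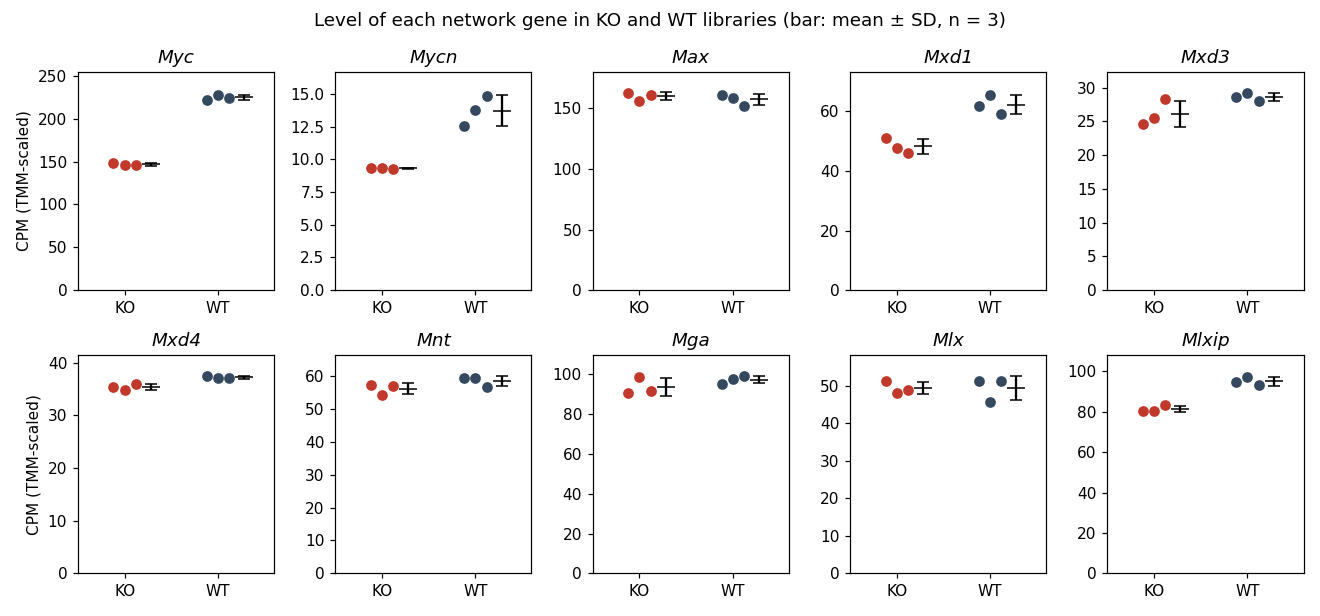
CPM (y axis, from 0) of each of the 10 network genes in the 3 KO libraries (left, red) and the 3 WT libraries (right, dark), 1 point per library, with the mean ± SD beside them. Myc, Mycn, Mxd1 and Mlxip lie wholly below WT in KO, and Max and Mlx overlap.

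Myc encodes the central activator of the network. It stood at 148, 147 and 146 CPM in KO replicates 1, 2 and 3, and at 222, 227 and 225 CPM in WT replicates 1, 2 and 3. The KO libraries lay within 3 CPM of each other, and all were far below the lowest WT library. The mean was 147 ± 1.36 CPM in KO and 225 ± 2.53 CPM in WT (SD, n = 3 each), a fall of 34.7% in KO, where the 95% interval of the change ran from -37.3% to -32.0% (log2 fold change -0.62 ± 0.028, SE; edgeR adjusted p = 1.93e-13). The coefficient of variation of WT, 1.13%, was close to the 1.12% that counting error alone gives at this depth. Among the 1165 tested genes at least as abundant as Myc, itself included, 11 had a lower log2 fold change. Among all 12810 tested genes, 458 had a lower one. In bulk RNA, fewer cells with high Myc and less Myc RNA per cell cannot be told apart.

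Mycn, the paralog of Myc best known from embryonic and neural tissue, was detected at a far lower level. It stood at 9.36, 9.32 and 9.23 CPM in KO and at 12.5, 13.7 and 14.9 CPM in WT, replicates 1 to 3 in each case, and the groups did not overlap. The coefficient of variation was 0.712% in KO and 8.55% in WT, where counting alone gives 4.55% in WT. KO libraries held fewer Mycn counts (329, 334 and 321), so counting alone gives more than 4.55% there. The KO value lay below what counting gives, so these spreads were not read as a difference between the labels. Mycn fell by 32.1% (95% interval of the change -40.6% to -22.5%; log2 fold change -0.56 ± 0.092, SE; edgeR adjusted p = 0.000101). Mycl, the remaining MYC family gene and no member, had 4, 8 and 1 counts in KO and 0, 3 and 2 counts in WT and was not tested.

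Max encodes the obligate partner of MYC, of the MXD proteins, of MNT and of MGA. Its level was 163, 156 and 161 CPM in KO and 161, 159 and 152 CPM in WT, with overlapping groups. The change was 1.61% (95% interval -2.97% to 6.42%) and did not pass (edgeR adjusted p = 0.696), so the interval leaves no room for a fall of Max as large as that of Myc.

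Mxd1 encodes a MAX partner that represses transcription through SIN3. It stood at 50.9, 47.7 and 46.1 CPM in KO and at 62.0, 65.6 and 59.2 CPM in WT, and again the highest KO library was below the lowest WT library. It fell by 22.5% (95% interval of the change -27.9% to -16.8%; log2 fold change -0.37 ± 0.050, SE; edgeR adjusted p = 7.53e-06). Mxi1, also known as Mxd2, is a repressor of the same family outside the 10 members. It had 12.5 ± 0.672 CPM in KO and 15.6 ± 0.733 CPM in WT (SD, n = 3 each) and fell by 0.32 on the log2 scale (edgeR adjusted p = 0.00757), a call that was lost without WT replicate 1 (adjusted p = 0.0517). The activator Myc and both of these repressor genes were thus lower in KO in the same libraries.

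The other repressor genes did not pass the test. Mxd3, an MXD gene associated with dividing cells, had 24.6, 25.5 and 28.3 CPM in KO and 28.7, 29.1 and 28.1 CPM in WT. KO replicate 3 reached into the WT range, and the log2 fold change was -0.13 ± 0.063 (SE; edgeR adjusted p = 0.173). Without KO replicate 3 Mxd3 passed as lower, at -0.19 with an adjusted p of 0.0438. Mxd4 had 35.4, 34.8 and 35.9 CPM in KO and 37.5, 37.1 and 37.0 CPM in WT, a gap without overlap but of only -4.96% (95% interval -11.7% to 2.26%; edgeR adjusted p = 0.375). The coefficient of variation of Mxd4 in WT, 0.745%, lay below the 2.76% that counting alone gives there. Mnt, the broadly expressed repressor of the network, averaged 56.1 ± 1.71 CPM in KO and 58.4 ± 1.59 CPM in WT, and Mga, a large repressor that also carries a T-box, averaged 93.6 ± 4.42 CPM in KO and 97.3 ± 1.89 CPM in WT (SD, n = 3 each). Both were not called. The groups of Mnt and of Mga overlapped, with log2 fold changes of -0.058 for Mnt and -0.056 for Mga (edgeR adjusted p = 0.427 and 0.384).

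On the MLX side, the glucose-responsive partner fell and MLX itself did not pass. Mlxip had 80.3, 80.2 and 83.1 CPM in KO and 94.6, 97.3 and 93.1 CPM in WT, without overlap. It fell by 14.5% (95% interval of the change -19.0% to -9.76%; log2 fold change -0.23 ± 0.038, SE; edgeR adjusted p = 0.000108). Mlx had 51.3, 48.2 and 49.0 CPM in KO and 51.3, 45.8 and 51.3 CPM in WT, and its change of 0.0345% had a 95% interval from -7.03% to 7.64% (edgeR adjusted p = 0.998). Mlxipl, which encodes the liver-type partner ChREBP and is no member, had 0 counts in each KO library and 2, 0 and 0 counts in WT. In RefSeq (GRCm38.p6) Mlx overlaps Psmc3ip and Mxd3 overlaps Prelid1, neither of which was called. No source used here gives the strand setting of the counting, so the values of Mlx and Mxd3 may hold reads of these neighbours.

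**Figure D2:**
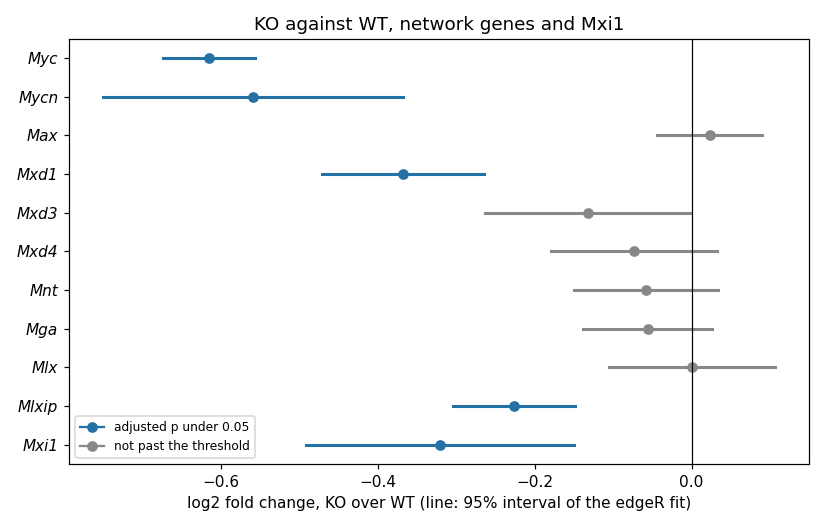
Log2 fold change, KO over WT (x axis), of the 10 network genes and of Mxi1, with the 95% interval of the edgeR fit as a line and genes past the threshold in blue. Myc at -0.62 and Mycn at -0.56 lie farthest from 0, and the intervals of Max, Mxd4, Mnt, Mga and Mlx include 0.

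The promoter windows shown above can be set beside these values. None of the 3 called members with a window, Mycn, Mxd1 and Mlxip, held CACGTG there, and the 4 members that held it, Max, Mxd4, Mnt and Mlx, had log2 fold changes between -0.073 and 0.023. Among all tested genes with a window, CACGTG was in 9.93% of those lower, 12.4% of those higher and 11.4% of those not called. Its absence from a called gene was therefore usual. Of these 3 groups, 77.9%, 80.7% and 78.8% of genes had a window. The first base of the site lay 3 bases before the annotated start in Max, 40 in Mlx, 123 in Mnt and 219 in Mxd4. Mxd3 and Mga, which did not pass either, also lacked CACGTG, and with 9 windows chosen for their family this is a description of these windows alone. A match is not a bound site, and sites outside the window were not searched.

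**Figure D3:**
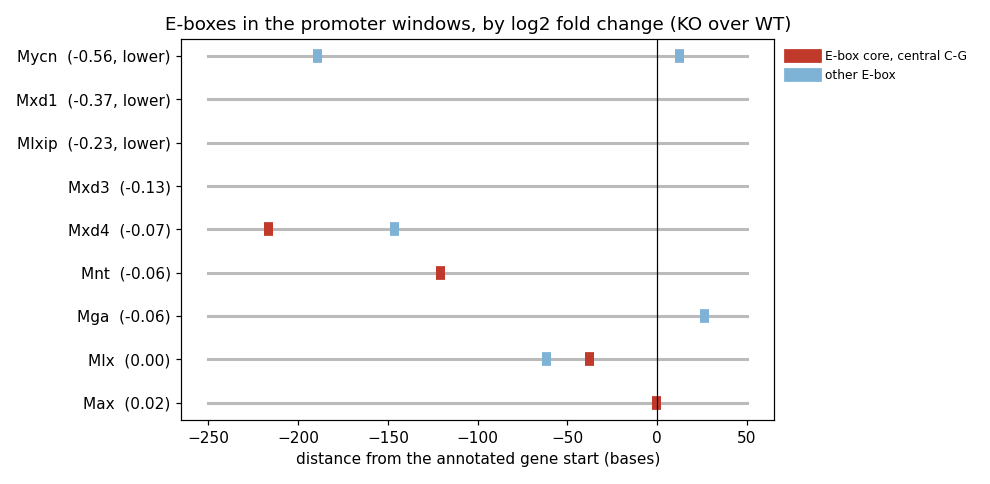
Positions of E-boxes (x axis, distance in bases from the annotated gene start) in the promoter windows of 9 network genes, ordered by log2 fold change (KO over WT, in brackets). Red blocks are CACGTG and blue blocks other CANNTG matches; red blocks appear only in Mxd4, Mnt, Mlx and Max.

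Levels of different genes were compared per transcript length, on the deposited FPKM scale (fragments per kilobase of transcript and library size). Over both labels the order was Myc, Max, Mxd3, Mlx, Mxd1, Mlxip, Mxd4, Mnt, Mycn and Mga. In WT no neighbours in this order overlapped, whereas in KO the ranges of Myc and Max overlapped, as did those of Mxd3 and Mlx, of Mxd1 and Mlxip, and of Mycn and Mga. Myc had 61.4 ± 0.663 FPKM in KO and 93.4 ± 0.958 FPKM in WT, and Max had 60.7 ± 1.41 FPKM in KO and 59.3 ± 1.99 FPKM in WT (SD, n = 3 each). The ratio of Myc to Max was therefore 1.00, 1.03 and 0.998 in the KO libraries and 1.52, 1.58 and 1.63 in the WT libraries.

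The order rests on the length used for each gene. The deposited values imply 26585 bp for Mga and 7929 bp for Mnt, where the exons of the GENCODE M21 basic annotation span 13931 bp and 4590 bp. With those exon lengths, an alternative chosen after the data were seen, Max stood first and Mycn last, and the ratio of Myc to Max was 0.734 in KO and 1.14 in WT. The length is the same in every library, so comparisons of KO with WT for 1 gene are not touched.

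Summed over the 10 genes, the network had 208, 202 and 207 FPKM in KO and 246, 247 and 242 FPKM in WT. Most of this gap was Myc, since the other 9 genes together had 144 ± 2.82 FPKM in KO and 152 ± 2.59 FPKM in WT (SD, n = 3 each). Myc made up 29.9% ± 0.406 of the sum in KO and 38.1% ± 0.466 in WT, and Max 29.5% ± 0.258 in KO and 24.2% ± 0.559 in WT. The repressor members Mxd1, Mxd3, Mxd4, Mnt and Mga summed to 50.4 ± 1.25 FPKM in KO and 55.9 ± 1.36 FPKM in WT. The ratio of Myc plus Mycn to these repressors was 1.32, 1.31 and 1.24 in KO and 1.74, 1.75 and 1.81 in WT. On this scale the balance of the transcripts lay lower in every KO library although both sides were lower. Sums, shares and ratios rest on the deposited lengths. With the GENCODE exon lengths the repressor sum would be larger, and the ratio lower, in both labels. Mxi1, no member, is not in the repressor sum. These sums were not tested, because the members had been chosen with earlier results of these data known.

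**Figure D4:**
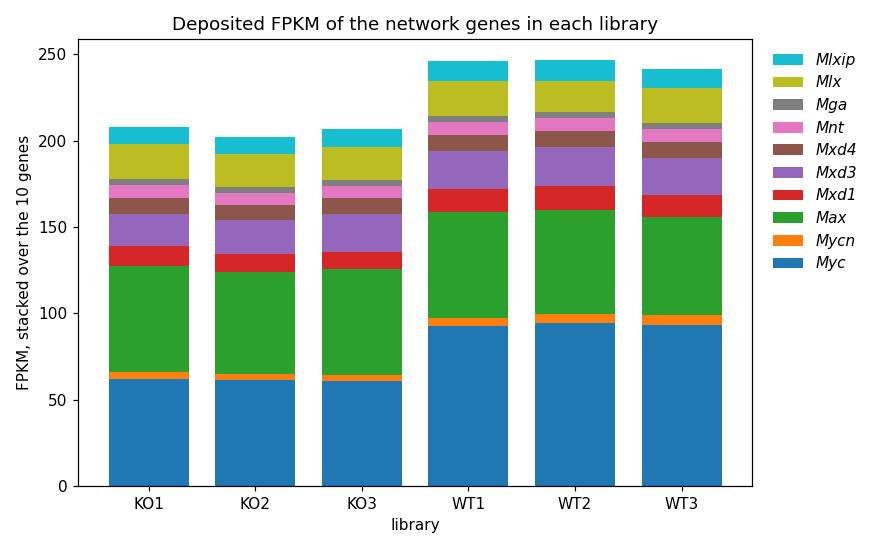
Deposited FPKM of the 10 network genes (y axis, stacked) in each KO and WT library (x axis). The columns reach 202 to 208 FPKM in KO and 242 to 247 FPKM in WT, and the Myc segment at the base accounts for most of the gap.

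Genes whose profile lay closest to that of a called member were found by the root mean square difference of mean-centred log2 CPM over the 6 libraries, among 8437 genes of at least 10 mean CPM. For Myc these were Ccl3, a chemokine gene, Ifngr1, which encodes an interferon-γ receptor subunit, Gimap6, a lymphocyte GTPase gene, Lilrb4a, an inhibitory receptor gene, and Dgka, which encodes a diacylglycerol kinase, with distances from 0.0212 for Ccl3 to 0.0269 for Dgka. Ifngr1, for example, had 368 ± 5.11 CPM in KO and 558 ± 5.78 CPM in WT (SD, n = 3 each). The nearest genes to Mycn were Foxp3, Irf7, Tbx21, Socs3 and Selenop, at distances of 0.0348 to 0.0588. For Mxd1 they were Socs1, Tsc22d3, Gm35037, Plk3 and Rcsd1 (0.0363 to 0.0430), and for Mlxip Tapbp, Ifnar1, Plec, Peak1 and Stk38 (0.0164 to 0.0192). Genes picked this way share the fall by construction, so their changes are a description.

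Transcripts of the proteins through which the network acts were tested next, on lists chosen with earlier results of these data known. Counts of called genes are to be read beside the 17.3% of all tested genes called in either direction. Counts at an unadjusted p, here and for the lists below, have no such share beside them. Of 17 genes of the SIN3 and NCOR co-repressors used by MXD and MNT, 3 rose and 0 fell, with a median log2 fold change of 0.051. They were Rbbp4, Hdac1 and Rbbp7, at 0.11, 0.11 and 0.092, while Sap130 (0.10; edgeR adjusted p = 0.0619) and Sin3a (0.051; adjusted p = 0.367) did not pass. At an unadjusted p under 0.05, 8 genes of this list were higher and 0 lower, and DESeq2 and limma-voom also called 0 lower. The count of 3 was 5 under upper-quartile or total-count scaling. Rbbp7 was not called without WT replicate 1 or without WT replicate 2.

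Of 12 partners of MGA in the repressive complex PRC1.6, 2 rose and 0 fell, at a list median of 0.089. They were Tfdp1 (0.15 ± 0.031, SE; edgeR adjusted p = 0.00111) and Hdac1, which the co-repressor list also holds, while L3mbtl2 (0.10; adjusted p = 0.125) did not pass. At an unadjusted p under 0.05 the counts were 4 higher and 0 lower, and by DESeq2 and limma-voom 2 higher and 0 lower. Of 17 co-activators and partners of MYC, 1 fell and 0 rose, at a median of 0.043. That gene was Ccnt1, a cyclin of the elongation kinase P-TEFb, whose call (-0.13; edgeR adjusted p = 0.0263) was lost on leaving out any library except KO replicate 2. Hcfc1 (0.068), Ep300 (-0.083) and Wdr5 (0.079) did not pass. At an unadjusted p under 0.05, 3 genes of this list were higher and 2 lower, and DESeq2 and limma-voom called 0 higher and 1 lower. Without KO replicate 1, 1 gene of this list was higher and 0 were lower.

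Of 12 genes of MYC protein turnover, 1 rose and 2 fell, at a median of 0.041. Huwe1, a ubiquitin ligase gene, rose by 0.093, and Trpc4ap, an adaptor of a ubiquitin ligase that acts on MYC, fell by 0.19 (edgeR adjusted p = 0.00459 and 0.000113). Ppp2r5a, a phosphatase subunit gene, fell by 0.083, a call lost without any library except KO replicate 2. Fbxw7, the main recognition subunit for MYC degradation, had 48.8 CPM in KO and 53.4 CPM in WT and did not pass (edgeR adjusted p = 0.0501).

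Most genes known as MYC targets did not pass the test, and those of nucleotide and polyamine synthesis were more often higher than lower. Of 24 such genes, 8 rose and 0 fell, beside 7.23% higher and 10.1% lower among all tested genes, and the list median was 0.061. At an unadjusted edgeR p under 0.05, 9 were higher and 1 lower, and DESeq2 and limma-voom each called 8 higher and 0 lower. Cad, the enzyme that opens pyrimidine synthesis, had 394 ± 2.56 CPM in KO and 320 ± 5.09 CPM in WT (log2 fold change 0.30 ± 0.024, SE; edgeR adjusted p = 2.48e-09). Odc1, the rate-limiting enzyme of polyamine synthesis, had 591 ± 2.93 CPM in KO and 507 ± 7.47 CPM in WT (0.22 ± 0.022; edgeR adjusted p = 9.85e-08). Tyms, Shmt1, Mthfd1, Srm, Prps1 and Umps rose by 0.13 to 0.22, Umps not without WT replicate 3 (adjusted p = 0.0581). The summed level of the list was 4053 to 4094 CPM in KO and 3784 to 3796 CPM in WT.

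Ribosome biogenesis genes, the classic growth targets of MYC, rose in 5 of 30 and fell in 0, at a median of 0.054. In the whole set of tested genes 7.23% were higher and 10.1% lower. The 5 were Ubtf, Bop1, Mybbp1a, Noc4l and Npm1, with rises of 0.065 to 0.14, and 3 were called without KO replicate 1, without WT replicate 2 or without WT replicate 3. At an unadjusted edgeR p under 0.05, 8 were higher and 2 lower, and DESeq2 and limma-voom called 5 higher and 0 lower. The abundant nucleolar genes Ncl and Fbl did not pass, at 0.030 and 0.055. Among 15 genes of amino acid transport and translation, 3 rose and 1 fell, at a median of 0.0068. Eif5a rose by 0.089, Eif4g1 by 0.076 and Eif3b by 0.077, and Slc38a2, an amino acid transporter gene, fell by 0.15. Eif3b was not called without KO replicate 1, WT replicate 2 or WT replicate 3. The amino acid transporter gene Slc7a5, at 343 CPM in KO and 345 CPM in WT, did not pass (edgeR adjusted p = 0.880).

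Among these target lists, that of glycolysis and cell cycle held most of the falls, with 8 of 16 lower and 2 higher at a median of -0.038. Of all tested genes 10.1% were lower and 7.23% higher. Hk2, a hexokinase gene, had 94.0 ± 0.807 CPM in KO and 124 ± 2.08 CPM in WT (log2 fold change -0.41 ± 0.034, SE; edgeR adjusted p = 5.05e-09). Slc2a1 (GLUT1), Eno1, Pgk1, Pkm and Tpi1 fell by 0.073 to 0.19, as did the cell cycle genes Ccnd2 (0.18) and E2f2 (0.14), whereas Mcm5 and Mcm2 rose by 0.11 and 0.10. Tpi1 was not called without any 1 of KO replicates 1 and 2 and WT replicates 1, 2 and 3, and Pkm not without WT replicate 2. Ldha, another glycolytic target, did not pass, with 1933 CPM in KO and 1936 CPM in WT.

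Of 9 tested targets of MLX and MondoA, 2 rose and 3 fell, at a median of -0.12, beside 7.23% higher and 10.1% lower among all tested genes. Hk2 and Slc2a1, which the preceding list also holds, fell, as did Acaca, the first enzyme of fatty acid synthesis, by 0.12, while Arrdc3 and Klf10 rose by 0.27 and 0.30. Acaca was not called without WT replicate 1 or without WT replicate 3. Txnip, the best-known MondoA target, had 71.3 ± 3.26 CPM in KO and 77.3 ± 1.62 CPM in WT (SD, n = 3 each) and did not pass (edgeR adjusted p = 0.0608). Of 9 tested genes that MYC is known to repress, 4 fell and 0 rose, at a median of -0.22, beside the same shares of all tested genes. The counts were the same at an unadjusted edgeR p under 0.05, by DESeq2 and by limma-voom. The 4 were Klf6, Cdkn1a, Ndrg1 and Ndrg2. Cdkn1a, an inhibitor of cyclin-dependent kinases, had 73.6 ± 2.88 CPM in KO and 90.5 ± 3.09 CPM in WT (SD, n = 3 each). Ndrg2 was not called without KO replicate 1, WT replicate 1 or WT replicate 3.

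**Figure D5:**
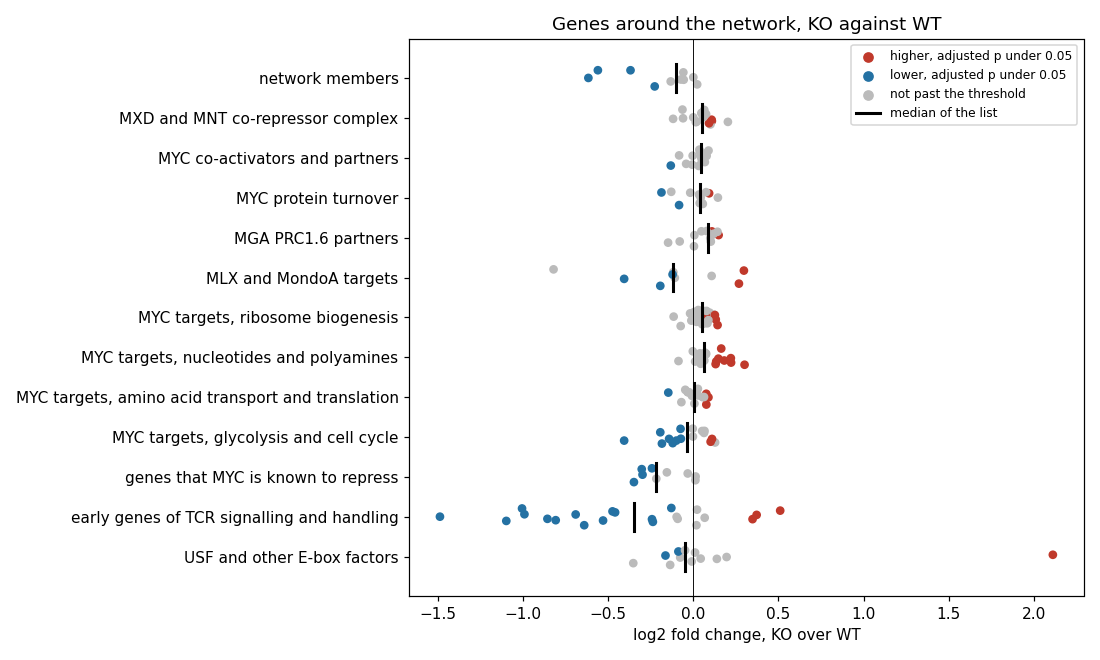
Log2 fold change, KO over WT (x axis), of each tested gene in 13 gene lists and families around the network (rows), with called genes in red (higher) or blue (lower) and the list median as a black line. The nucleotide and polyamine list lies to the right of 0 in its called genes, and the early gene list holds the lowest value, -1.49 for Nr4a1.

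Myc is itself an early gene of antigen receptor signalling, and many, but not all, of the listed early genes were lower in KO too. Of 22 early genes, which also respond to handling of the cells, 14 fell and 3 rose, beside 10.1% lower and 7.23% higher among all tested genes. The summed level of the 22 was 2670 to 2696 CPM in KO and 3396 to 3463 CPM in WT. Egr1 had 358 ± 3.86 CPM in KO and 711 ± 14.8 CPM in WT (SD, n = 3 each), and Nr4a1, a nuclear receptor gene, had 37.8 CPM in KO and 106 CPM in WT. Ier2 fell by 0.64 and Zfp36 by 0.47 on the log2 scale, while Dusp1, Dusp2 and Nfkbia were higher in KO, by 0.51, 0.37 and 0.35. The remaining 5, Egr3, Nr4a2, Nr4a3, Jun and Jund, did not pass (edgeR adjusted p from 0.352 to 0.853). Their log2 fold changes were -0.091, 0.019, -0.097, 0.067 and 0.022. The list shares Klf6 with the MYC-repressed genes. The part of handling, and of the higher Cd8a and lower myeloid marker sums given at the start, in the fall of Myc was not tested.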

How the data were processed

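Per the labels' protocols, TRIzol was used for RNA extraction and a VAHTS Universal V6 kit for the libraries. The submitters' processing notes name fastp, HISAT2, HTSeq and the build GRCm39; no source used here gives their versions, the annotation or the strand setting. The authors deposited whole-number counts per gene symbol and FPKM values; these FPKM equal the counts over the column total and a fixed length per gene, within 0.01 bp. Totals of 34644862 to 35806402 counts per library give WT counting errors of 1.12% for Myc, 2.76% for Mxd4, 3.15% for Mxd3 and 4.55% for Mycn.

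The label effect was fitted to the counts by edgeR 4.0.16 under R 4.3.3 (TMM scaling, filterByExpr by group, quasi-likelihood test of the label alone, Benjamini-Hochberg adjustment over 12810 genes, threshold 0.05). The filter left out 0.0366% of the counts. Each standard error is the size of the log2 fold change divided by √F, and intervals are 95% intervals of that fit. Apart from counting noise, edgeR put the spread of same-label libraries at 4.16% (coefficient of variation), which may be technical. The fit was tested on simulated data, where the share of false calls lay above the threshold (14 of 149 calls). It recovered 43.3% of 1.2-fold, 77.6% of 1.5-fold and 81.8% of 2-fold changes, so it missed some changes of every size. The changed genes, 66 or 67 of each size, were drawn at random from all 12810, low levels included. Far more genes were called in the data (17.3%), so these rates do not tell how readily a change of a member is found. Alternatives were other scalings, DESeq2 1.42.0, limma 3.58.1 (voom, and trend on log2 FPKM plus 0.1 or 1), other filters and thresholds, a robust fit, the replicate number as a block, and each library left out.

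Members, lists, tests and alternatives were chosen with earlier results of these data known. Named genes were the members, Usf3, the nearest profiles and, from each list, up to 4 genes with the smallest p and any called gene of lists with 5 or fewer calls. Others in the text (Mycl, Mlxipl, Sin3a, Ncl, Fbl, Slc7a5, Ldha, Txnip, Dusp1, Dusp2, Nfkbia, Egr3, Nr4a2, Nr4a3, Jun, Jund, Cd247, Usf1, Usf2 and further called genes of a list) were chosen after their values were seen. Between libraries of the same label, chi-square per degree of freedom was 3.26 to 7.19, above sampling noise, so none was taken as the same library sequenced again. The check cannot tell separate preparations of the same RNA from separate animals.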

Additional observations from a re-analysis of the deposited data

How the results depend on the processing

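The 4 members called lower, Myc, Mycn, Mxd1 and Mlxip, were lower and past the threshold under each of 21 alternatives. Their highest adjusted p was 8.72e-05 for Myc, 0.0137 for Mycn, 0.021 for Mxd1 and 0.0157 for Mlxip, and 0 members were higher under any of them. With each library left out in turn, 4 to 5 members were lower, 666 to 1000 genes higher and 994 to 1330 lower, against 926 and 1293 with all libraries. Without a filter on log2(FPKM + 1), 563 genes were higher and 730 lower, a setting that tests more genes of low level, and at an adjusted p under 0.01, 520 were higher. Mxi1 was not called on log2(FPKM + 1) without a filter (adjusted p = 0.0834). Mlx changed sign under 2 alternatives and was not called under any. The median log2 fold change of all tested genes lay between -0.0020 and 0.013 under these alternatives. Replicate numbers are shared between the labels, but deviations of same-numbered libraries correlated at -0.0312, -0.0394 and -0.131, so the numbers do not pair them; with the replicate block 792 genes were higher and 1177 lower, and 4 members were lower. Several list counts moved by over 1.5 times, among them 5 ribosome biogenesis genes higher (2 on log2(FPKM + 1) without a filter) and 8 glycolysis and cell cycle genes lower (5 there). Depth limits Mycn most among the members.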

Other observations

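Of 13 tested USF and other E-box factor genes, 1 was higher and 2 were lower in KO, at a median log2 fold change of -0.048 (edgeR). Among all tested genes 7.23% were higher and 10.1% lower by the same test. Srebf2, the regulator of cholesterol synthesis, had 444 CPM in KO and 498 CPM in WT (adjusted p = 1.40e-05), and Bhlhe40, a repressor gene of the clock family, changed by -0.087, a call lost without KO replicate 1, WT replicate 1 or WT replicate 2. Bhlhe41, the relative of Bhlhe40, was the higher one, at 2.42 CPM in KO and 0.558 CPM in WT (adjusted p = 1.79e-05). Tfeb, Usf1 and Usf2 did not pass (adjusted p = 0.0669, 0.355 and 0.0775). On the γδ T cell list, 5 of 8 tested genes were lower and 0 higher, beside those same shares. At an unadjusted edgeR p under 0.05 the counts were 6 and 0, without a share of all tested genes at that cutoff. Cd3g (-0.17) and the kinase gene Blk, at 1.39 CPM in KO and 3.10 CPM in WT, were among the lower ones.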
